A study of Mus musculus with 6 samples.

Results

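Genes that store or move iron were followed in medullary thymic epithelial cells without and with Aire. The 9 genes chosen, of 15643 in the count table, were picked by symbol: Hamp, Ftl1, Fth1, Mir692-1, Trf, Tfrc, Slc40a1, Slc11a2 and Hmox1. They were picked with the genotype comparison of these libraries already known, so their differences between genotypes are given below as descriptions, without p-values. The samples were mature medullary thymic epithelial cells, the fraction called mTEChi, sorted from NOD mice, a strain prone to autoimmune diabetes. Libraries 746, 748 and 749 carry the label Aire-/- and libraries 745, 750 and 753 the label Aire+/+, 3 of each genotype. All 6 came from NOD mice aged 4.5 weeks, and no further allele or treatment is given for either genotype. Libraries were made by MARS-seq, which reads the 3′ end of polyadenylated RNA and counts each captured molecule once through a unique molecular identifier (UMI). The labels do not say which bases of Aire the mutant allele lacks, or whether each library came from its own mouse, so p-values below measure the spread between these libraries.

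Library totals were 1014581, 1960802 and 1824232 UMIs in the Aire-/- libraries, against 2736932, 2839488 and 2887321 in the Aire+/+ libraries. Aire itself had 4772, 8298 and 8372 UMIs in Aire-/- and 6290, 6783 and 7290 in Aire+/+, a larger share of the smaller Aire-/- totals. A 3′ tag need not lie in the deleted part, so these counts do not check the genotype, which rests on the labels. Gapdh was almost missing from 1 library of each genotype, with 28 UMIs in 746 and 90 in 753, against 2245 to 4166 UMIs in the other 4. All 12 genes listed as markers of mature medullary epithelium were detected, though not all of them are particular to these cells. Of the 12, edgeR called 6 higher in Aire-/-: Krt8, Cd80, Cd86, H2-Aa, H2-Ab1 and Cd74. Epcam, Krt5, Krt14, Cd40, Fezf2 and Tnfrsf11a were not called, at log2 fold changes of -0.41 to 0.01. The summed level of all 12 was 66845 to 75645 CPM (UMIs scaled to 1000000 per library) in Aire-/- and 38673 to 45817 CPM in Aire+/+. Most of it came from H2-Aa, H2-Ab1 and Cd74, with means of 18779, 23572 and 24115 CPM in Aire-/-, so the sum does not describe the other markers. All 5 tested markers of cortical thymic epithelium rose as well. Over all tested genes, edgeR called 8.59% higher and 12.1% lower. No tested marker of T cells, B cells or dendritic cells was called by edgeR or DESeq2 or had an unadjusted edgeR p under 0.05. The summed level of fibroblast and endothelial markers was 243, 83.4 and 55.0 CPM in Aire-/-, against 52.8, 43.9 and 43.6 CPM in Aire+/+, with library 746 the highest. Of the 3 tested, Col3a1, a fibrillar collagen, was called higher by edgeR (log2 3.01, adjusted p = 0.0157) and by DESeq2. It had 195, 37.1 and 8.56 CPM in libraries 746, 748 and 749, against 14.1, 7.27 and 5.71 CPM in Aire+/+, so the genotypes overlapped. The part of fibroblasts and endothelial cells in the results was not tested. Transcripts of macrophages, another cell type that handles iron, were present in all 6 libraries and are set beside the genes they bear on. In RNA from many cells, fewer cells of a type and less RNA per cell cannot be told apart.

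Cells take up iron bound to transferrin (Trf) through the transferrin receptor (Tfrc), move it out of the endosome through the divalent metal transporter Slc11a2 and free it from haem with haem oxygenase 1 (Hmox1). Ferritin, a shell built of heavy chains (Fth1) and light chains (Ftl1), stores what is not used, and ferroportin (Slc40a1) is the known exporter of iron from cells. Hepcidin, the hormone made from Hamp mainly in the liver, binds ferroportin and causes its breakdown. Inside the cell, iron regulatory proteins bind a hairpin in certain mRNAs, the iron-responsive element. Near the 5′ end of an mRNA this binding blocks translation, and in the 3′ untranslated region of Tfrc it protects the mRNA from decay. Aire is the nuclear factor through which these epithelial cells express many genes of peripheral tissues. Hamp, as a liver gene, belongs to the kind of genes that such cells display, whereas ferritin is made by most cells.

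Sequences of 3 kinds bear on how the counts of these genes can be read. The first concerns Mir692-1, annotated at chr17:6895229-6895337 on the minus strand of GRCm38 as a microRNA gene with a hairpin of 109 nt. The hairpin was aligned with the Ftl1 transcript because the counts of both genes differed between the genotypes. It matched a stretch of Ftl1 in its last exon, at chr7:45458089-45458199 (minus strand), which spans the stop codon. Of 111 alignment columns 105 were identical, 4 were substitutions and 2 were gap positions. The mature microRNA is given as RefSeq has it, with its seed (bases 2 to 8) in capitals. In the hairpin and the Ftl1 stretch, capitals mark the bases that differ between them.
mature miR-692: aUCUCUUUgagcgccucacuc
Mir692-1 hairpin: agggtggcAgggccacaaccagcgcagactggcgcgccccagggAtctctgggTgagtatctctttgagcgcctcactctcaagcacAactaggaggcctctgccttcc
Ftl1 stretch: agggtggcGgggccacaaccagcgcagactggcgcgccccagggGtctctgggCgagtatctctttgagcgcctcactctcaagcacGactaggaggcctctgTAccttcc

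Every base of mature miR-692 occurs in this order in Ftl1, from base 771 of a transcript of 968 nt, outside all the positions at which the hairpin and Ftl1 differ. Transcripts of 16 genes hold these letters, and 2 of the 16 are in the count table, Ftl1 and Mir692-1. The stretch ends 145 nt before the 3′ end of Ftl1, in the part of the mRNA that a 3′ end method reads. Both genes had 21 near-identical copies in the annotation (at least 80 nt at 90% identity or more), of which 1 each, the other of the pair, is in the table. The ferritin light chain copy Ftl1-ps1 on chromosome 13 was closer still to the hairpin, with 107 identical columns and 2 substitutions. The annotation also places a microRNA gene, Gm22133, inside the last exon of Ftl1, at chr7:45458089-45458197 on the same strand. The counting rule for reads that match several genes is not given in the sources used here, so a UMI counted under Mir692-1 cannot be told apart from one of a ferritin light chain copy.

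The second set concerns Hamp and its neighbour and near copy Hamp2, whose counts went in opposite directions. The reference transcripts of Hamp and Hamp2 were identical in 388 of 417 alignment columns, with 22 substitutions, and in 92 of the last 100 columns. The 150 bases before each transcript start were identical at 138 positions. Capitals below mark the 12 positions that differ between Hamp (chr7:30944033-30944182) and Hamp2 (chr7:30924182-30924331). Both lie on the minus strand of GRCm38.p6, from RefSeq.
Hamp upstream: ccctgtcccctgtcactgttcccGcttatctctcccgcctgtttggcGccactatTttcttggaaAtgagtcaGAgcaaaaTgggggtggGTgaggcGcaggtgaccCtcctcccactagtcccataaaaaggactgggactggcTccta
Hamp2 upstream: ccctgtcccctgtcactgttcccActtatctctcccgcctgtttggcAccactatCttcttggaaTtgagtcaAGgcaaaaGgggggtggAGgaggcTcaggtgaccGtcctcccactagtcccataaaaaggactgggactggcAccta

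Both motifs searched here read the same on either strand and did not overlap in Hamp. GGCGCC, the BMP-responsive element through which bone morphogenetic proteins act on hepcidin, occurred once before Hamp, at -106 from the transcript start, and a base that differs between the genes lies in it. These 6 letters were not in the window of Hamp2. They were in 3149 of 32851 RefSeq promoters (9.59%, 250 bases upstream). TTCNNNGAA, the palindrome to which STAT factors bind, occurred at -94 in both genes and in 7.02% of promoters. A match describes the letters and is no evidence of binding in these cells.

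The third set is the iron-responsive element. The 9 genes were picked as iron genes, the kind whose mRNAs this element is known from, so matches among them are no test. The motif searched was a C, 5 bases, the loop CAGTGN and 5 bases that can pair with the first 5. It was found once near the 5′ end of Ftl1, Fth1 and Slc40a1 and 4 times in Tfrc, between bases 3321 and 3812 of its transcript. No match was found in the transcripts of Hamp, Mir692-1, Trf, Slc11a2 or Hmox1. The pattern allows no bulge in this stem, so irregular elements would not be found by it. In the first 250 nt of the longest transcript, a match occurred in 17 of 21877 protein-coding genes (0.0777%), and 1 gene in the annotation had 4 matches or more. For each of the 9 genes the transcript with the most matches was used instead, so that share is not a like comparison. In Ftl1, 2 of 6 transcripts had a match. Capitals mark the loop, and the positions on GRCm38 are chr7:45459779-45459807 for Ftl1, chr19:9982732-9982760 for Fth1, chr1:45925465-45925493 for Slc40a1 and chr16:32631219-32631247 for the first element of Tfrc.
Ftl1 IRE: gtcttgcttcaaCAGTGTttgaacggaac
Fth1 IRE: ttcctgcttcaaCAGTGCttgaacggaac
Slc40a1 IRE: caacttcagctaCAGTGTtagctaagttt
Tfrc IRE 1: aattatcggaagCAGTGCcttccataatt

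Across the 9 genes, hepcidin and the ferritin light chain were higher in Aire-/- and the counts under Mir692-1 were much higher, while the heavy chain and the genes of uptake, export and haem breakdown were close to their Aire+/+ level or varied between libraries. All 9 passed the filter on low counts. Of these, 3 were called higher in Aire-/- by edgeR, 0 were called lower (also 0 at an unadjusted p under 0.05 and by DESeq2) and 6 were not called, while over all 11956 tested genes 8.59% were called higher and 12.1% lower. The contrast was used to choose the genes, so nothing is read from that count. With TMM scaling, the Aire-/- libraries were all higher, without overlap, for 4 of the 9 (Hamp, Ftl1, Fth1 and Mir692-1), as they were for 16.3% of tested genes, while for 20.2% they were all lower. The median log2 fold change of the 9 was 0.18, against -0.02 over all tested genes.

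**Figure D1:**
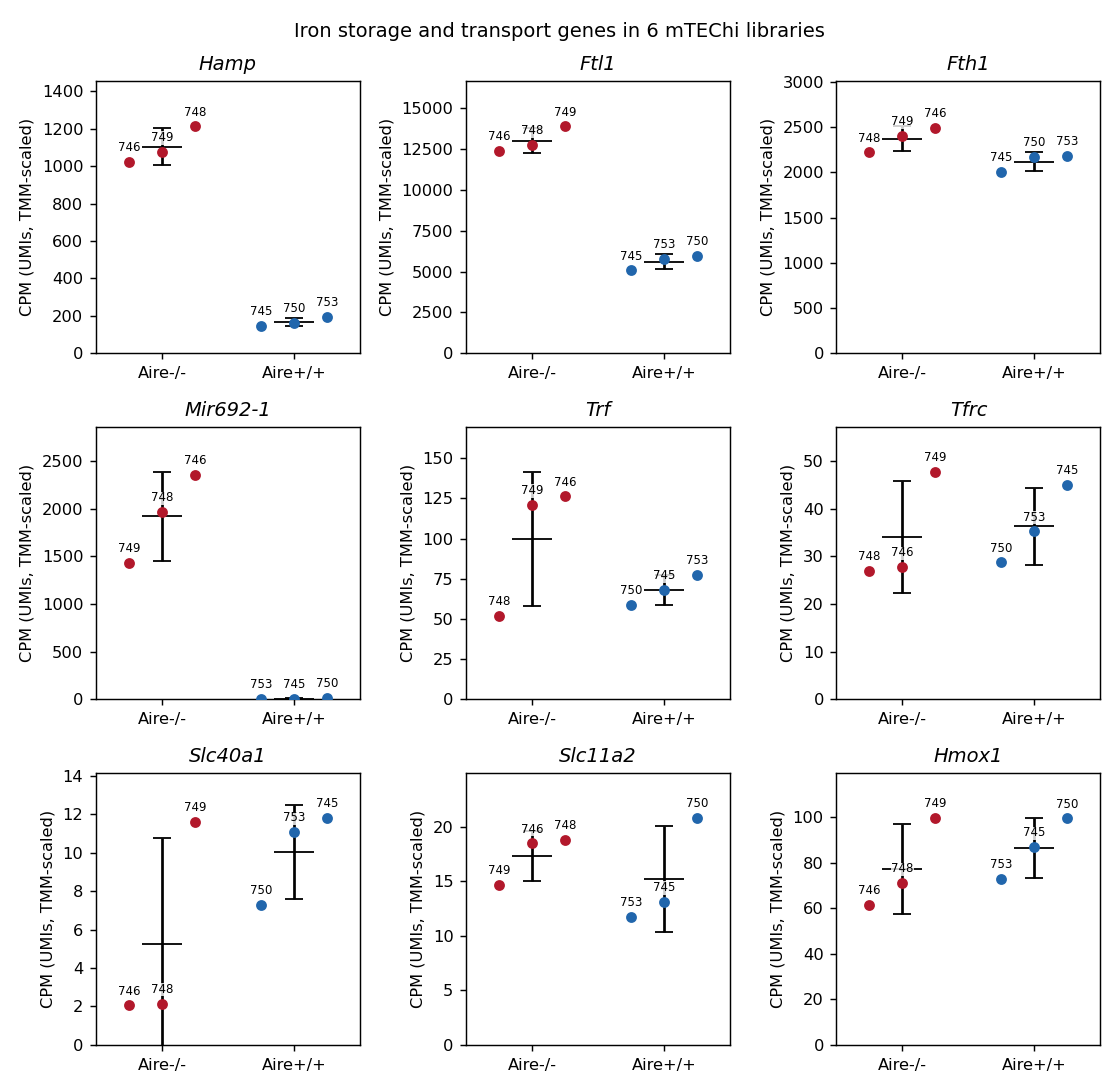
Levels of the 9 iron genes in CPM (UMIs scaled by TMM), by library number, in 3 Aire-/- libraries (red, left) and 3 Aire+/+ libraries (blue, right). Horizontal bars are means and vertical bars the SD over 3 libraries, which runs below 0 for Slc40a1 in Aire-/- and is not drawn there. Hamp, Ftl1 and Mir692-1 stand clear of the Aire+/+ libraries, and Slc40a1 splits the Aire-/- libraries.

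Hamp (chr7:30942368-30944032, minus strand) encodes hepcidin, the hormone that limits iron export. It had 995, 2253 and 1761 UMIs in the Aire-/- libraries, against 451, 497 and 573 UMIs in the Aire+/+ libraries. As levels these were 1022, 1212 and 1077 CPM in Aire-/- and 148, 164 and 192 CPM in Aire+/+. Every Aire-/- library was several times above every Aire+/+ library, and the spread within a genotype was small. The means were 1103 ± 98.0 CPM in Aire-/- and 168 ± 22.5 CPM in Aire+/+ (SD, n = 3 each), a 6.56-fold difference (log2 2.71, standard error 0.15). This was the 11th largest positive fold change of the 11956 tested. The authors' deposited table lists Hamp among its selected genes, at a log2 value of -2.72 for Aire+/+ over Aire-/-.

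Hamp2, the near copy 17687 nt away, was lower where Hamp was higher. Its peptide is not known to lower iron in mice. It had 9, 10 and 17 UMIs in Aire-/-, against 94, 97 and 84 UMIs in Aire+/+. Its level fell to 8.34 ± 2.63 CPM in Aire-/-, against 30.4 ± 1.97 CPM in Aire+/+ (log2 fold change -1.90, standard error 0.26), with an adjusted p of 0.000201 by edgeR. Within single libraries, there were 111, 225 and 104 UMIs of Hamp for each UMI of Hamp2 in Aire-/-, and 4.80, 5.12 and 6.82 in Aire+/+. The ranges of this ratio did not overlap, and the Aire-/- values were less even, since they rest on 9 to 17 UMIs of Hamp2. Summing both genes as 1 row left a log2 difference of 2.49. Reads of this pair could have been divided by the authors' counting, and the lincRNA Gm44662 overlaps both genes on the opposite strand, with the strand setting of the counting not given.

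Other liver genes did not follow Hamp. Of 9 hepatocyte markers, all were in the table, 8 were tested, 7 fell in Aire-/- and 0 rose by edgeR, as by DESeq2, and 0 were higher at an unadjusted p under 0.05. Over all tested genes, edgeR called 12.1% lower. The 9 markers summed to 24.6, 52.2 and 43.4 CPM in Aire-/- and to 339, 300 and 404 CPM in Aire+/+. Alb and Fgb, which encode albumin and a chain of fibrinogen, had 0 UMIs in all 3 Aire-/- libraries, where Hamp had its highest counts. Among all tested genes, those whose profile over the 6 libraries was nearest to that of Hamp were Unc93a, M1ap and Nfasc, at root mean square differences of 0.26, 0.26 and 0.27 on the log2 scale after centring. M1ap, a gene of meiosis, averaged 212 ± 37.6 CPM in Aire-/- and 38.2 ± 2.94 CPM in Aire+/+.

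**Figure D2:**
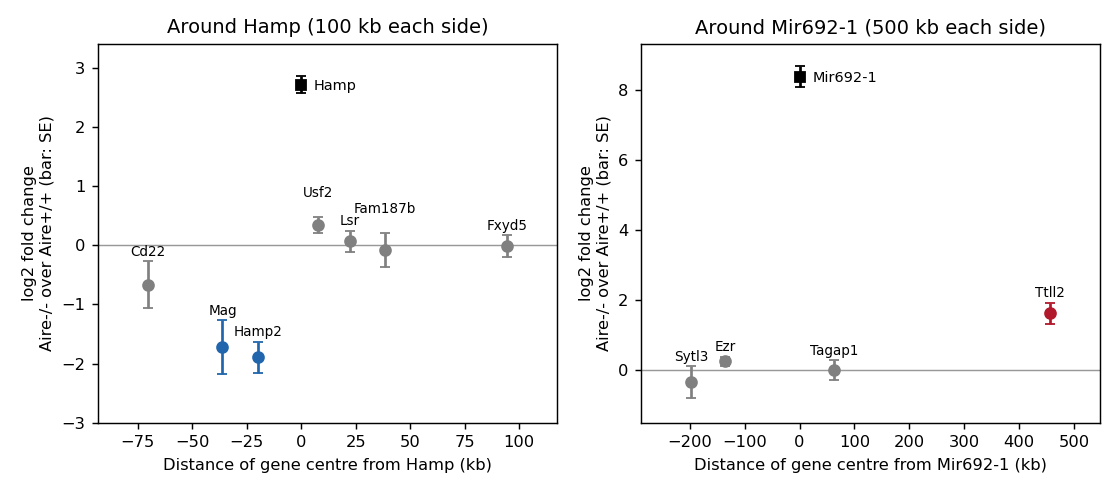
Log2 fold changes (Aire-/- over Aire+/+, bars are standard errors) of tested genes around Hamp (left panel) and Mir692-1 (right panel), by distance in kb. Red marks genes called higher in Aire-/-, blue lower and grey not called, and the black squares are Hamp at 2.71 and Mir692-1 at 8.37. In each panel the named iron gene stands above all its tested neighbours.

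Around Hamp, no tested neighbour had a fold change like its own. Within 100 kb, a window chosen after the values were seen, 17 other genes are annotated, 9 are in the table and 7 were tested. Of these 0 rose by edgeR or DESeq2 (1, Usf2, was higher at an unadjusted edgeR p under 0.05) and 2 fell, Hamp2 and Mag, a glycoprotein of myelin. For comparison, edgeR called 12.1% of all tested genes lower and 8.59% higher. Mag averaged 5.95 ± 3.90 CPM in Aire-/- and 17.6 ± 7.26 CPM in Aire+/+ (log2 fold change -1.72, edgeR adjusted p = 0.0162). Without library 748 or 753 that adjusted p was 0.0824 or 0.0820. The nearest gene, Usf2, a transcription factor 1216 nt away, had 171 ± 12.1 CPM in Aire-/- and 134 ± 13.5 CPM in Aire+/+, with all 3 Aire-/- libraries higher and an edgeR adjusted p of 0.0935. Ffar3, a receptor for short fatty acids, had 0 UMIs in the 3 Aire-/- libraries, against 11, 15 and 13 in Aire+/+, and was not tested.

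Ftl1 (chr7:45457944-45459884, minus strand) encodes the light chain of ferritin, which helps the iron core to form. Its counts were 12084, 23674 and 22714 UMIs in Aire-/-, against 15460, 18095 and 17235 UMIs in Aire+/+. Scaled, these were 12407, 12735 and 13886 CPM in Aire-/- and 5070, 5978 and 5786 CPM in Aire+/+. The lowest Aire-/- library lay well above the highest Aire+/+ library. The means were 13009 ± 777 CPM in Aire-/- and 5611 ± 478 CPM in Aire+/+ (SD, n = 3 each), a 2.32-fold difference (log2 1.21, standard error 0.14). It ranked 241 among positive fold changes. The tested genes nearest to it in profile were Synj2, H2-T23 and Mink1, at root mean square differences of 0.04 to 0.06 on the log2 scale.

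Fth1 (chr19:9980598-9985098, plus strand) encodes the heavy chain, which oxidises the iron that enters the shell. It had 2492, 2222 and 2402 CPM in Aire-/-, against 2002, 2171 and 2185 CPM in Aire+/+. The 3 Aire-/- libraries were all higher, but 748 lay just above the highest Aire+/+ library. The means were 2372 ± 137 CPM in Aire-/- and 2120 ± 102 CPM in Aire+/+, a log2 difference of 0.16 (standard error 0.13). With library totals alone as the scale it was -0.03, so no direction is given for Fth1. Both ferritin genes were even within a genotype: the SD of log2 levels was 0.09 for Ftl1 and 0.08 for Fth1 over the Aire-/- libraries, where the median gene had 0.31. Over the Aire+/+ libraries the SD was 0.13 for Ftl1 and 0.07 for Fth1, where the median gene had 0.19. These medians are over all tested genes, most of which have fewer UMIs and so more counting noise.

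The balance of the ferritin chains can be read within each library, where no scaling between libraries enters. There were 4.98, 5.73 and 5.78 UMIs of Ftl1 for each UMI of Fth1 in Aire-/-, against 2.53, 2.75 and 2.65 in Aire+/+. The Aire-/- values were all higher and the genotypes did not overlap, with means of 5.50 ± 0.449 in Aire-/- and 2.64 ± 0.110 in Aire+/+ (SD, n = 3 each). The ratio compares libraries; it does not give the chains present in ferritin, since 3′ tags of different mRNAs need not be captured alike. Fth1 has 2 near copies in the annotation, neither of them in the table, while Ftl1 has the many copies described above.

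**Figure D3:**
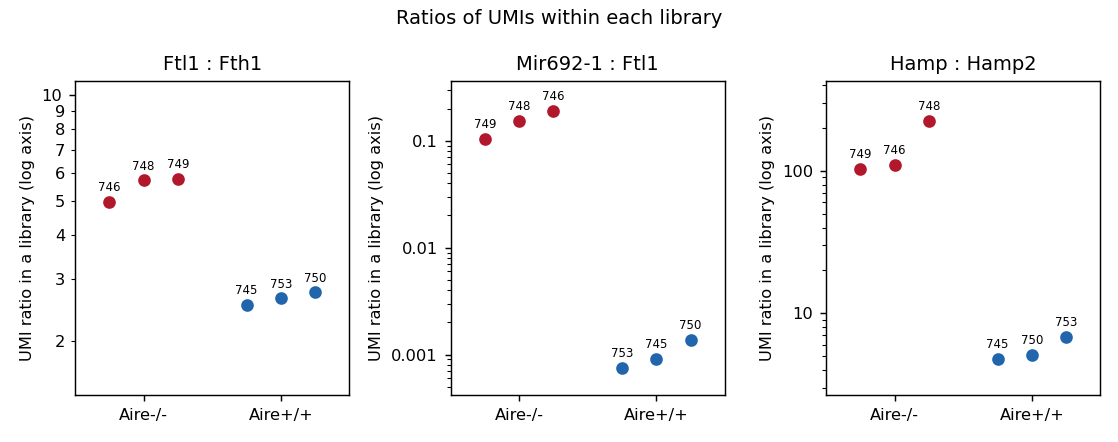
Ratios of UMIs within single libraries on a log axis, by library number, in 3 Aire-/- libraries (red, left) and 3 Aire+/+ libraries (blue, right). Ftl1 to Fth1 lies between 4.98 and 5.78 in Aire-/-, above 2.53 to 2.75 in Aire+/+, and the ratios of Mir692-1 to Ftl1 and of Hamp to Hamp2 are also apart without overlap.

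Mir692-1 had the largest positive fold change of the 11956 tested genes. It had 2299, 3657 and 2348 UMIs in Aire-/-, against 14, 25 and 13 UMIs in Aire+/+. These were 2360, 1967 and 1435 CPM in Aire-/- and 4.59, 8.26 and 4.36 CPM in Aire+/+. The genotypes lay far apart, and the order of the Aire-/- libraries was not that of Ftl1. The means were 1921 ± 464 CPM in Aire-/- and 5.74 ± 2.19 CPM in Aire+/+, a log2 difference of 8.37 (standard error 0.29). No tested gene had a like profile: the nearest, Serpina9, differed by a root mean square of 2.59 on the log2 scale.

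Set against the mRNA whose letters it shares, the count under Mir692-1 was 19.0%, 15.4% and 10.3% of the Ftl1 count in Aire-/-, and 0.0906%, 0.138% and 0.0754% in Aire+/+. The means were 14.9 ± 4.37% in Aire-/- and 0.101 ± 0.0327% in Aire+/+. The ranges did not overlap, so the count under Mir692-1 was not a fixed share of the Ftl1 count. With Ftl1 and Mir692-1 summed as 1 row, the log2 difference was 1.41 (standard error 0.14), against 1.21 for Ftl1 alone. Which of the annotated ferritin light chain copies or microRNA genes gave these molecules was not tested.

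The genes around Mir692-1 were at levels far below its own in Aire-/-. Within 500 kb, 30 other genes are annotated, 5 are in the table and 4 were tested, of which 1 rose and 0 fell by edgeR and by DESeq2, with 0 lower at an unadjusted p under 0.05. Among all tested genes, 8.59% were called higher and 12.1% lower by edgeR, and 4 genes are too few to compare with these shares. Ttll2, a tubulin tyrosine ligase-like gene 455548 nt away, rose to 18.1 ± 4.64 CPM in Aire-/-, against 5.96 ± 0.83 CPM in Aire+/+ (log2 fold change 1.62, edgeR adjusted p = 0.00159). Ezr, which encodes ezrin, a linker of membrane and actin, had 227 ± 29.4 CPM in Aire-/- and 190 ± 7.28 CPM in Aire+/+ (adjusted p = 0.217 by edgeR). Tagap1, 59674 nt away, averaged 13.8 ± 5.90 CPM in Aire-/- and 14.4 ± 0.36 CPM in Aire+/+, a log2 difference of 0.00 whose sign changed with the scaling. Sytl3 had a log2 difference of -0.34, and Rnaset2b, with 3 to 7 UMIs in every library, was not tested.

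Of the genes of iron uptake, Trf (chr9:103204001-103230444), which encodes transferrin, the iron carrier of plasma, had 126, 51.6 and 121 CPM in Aire-/-, against 67.9, 58.8 and 77.5 CPM in Aire+/+. Libraries 746 and 749 were above all Aire+/+ libraries and 748 was below them, so the genotypes overlapped. The log2 difference was 0.52 (standard error 0.26), with means of 99.7 ± 41.7 CPM in Aire-/- and 68.1 ± 9.37 CPM in Aire+/+. The SD of its log2 level was 0.72 over the Aire-/- libraries and 0.20 over the Aire+/+ libraries. Without 748 the log2 difference was 0.87, without 746 it was 0.34 and without 749 it was 0.31.

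Tfrc (chr16:32608920-32632794), the receptor that carries transferrin into the cell, had 27.7, 26.9 and 47.7 CPM in Aire-/-, against 44.9, 28.7 and 35.2 CPM in Aire+/+. The genotypes overlapped, with 1 Aire-/- library above all the Aire+/+ libraries and 2 below them. The log2 difference was -0.07 (standard error 0.25). It was 0.03, 0.11 and 0.10 without 746, 748 and 745, and -0.41 without 749, so no direction is given. Slc11a2 (chr15:100387898-100425072), the transporter that passes iron into the cytosol, had 18.5, 18.8 and 14.7 CPM in Aire-/-, against 13.1, 20.8 and 11.7 CPM in Aire+/+. These ranges overlapped too, at a log2 difference of 0.18 (standard error 0.28) that was 0.02 to 0.47 without single libraries and -0.02 on library totals alone, and both genes moved by less than the spread between libraries.

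Slc40a1 (chr1:45908068-45926523) encodes ferroportin, the target of hepcidin. It was the member with the fewest molecules, with 2, 4 and 19 UMIs in Aire-/-, against 36, 22 and 33 UMIs in Aire+/+. Its levels were 2.05, 2.15 and 11.6 CPM in Aire-/- and 11.8, 7.27 and 11.1 CPM in Aire+/+. Libraries 746 and 748 were below all Aire+/+ libraries and 749 was within their range. The count in 746 was below 3 UMIs, the most that a count of 0 allows. The log2 difference was -0.85 (standard error 0.51), and it was -2.22 without 749, -0.58 without 746 and -0.37 without 748.

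Hmox1 (chr8:75093621-75100589) encodes the enzyme that opens the haem ring and frees its iron. It had 61.6, 71.0 and 99.6 CPM in Aire-/-, against 86.9, 99.4 and 72.8 CPM in Aire+/+. The genotypes overlapped, with means of 77.4 ± 19.8 CPM in Aire-/- and 86.4 ± 13.3 CPM in Aire+/+ and a log2 difference of -0.14 (standard error 0.19), or -0.37 to -0.02 without single libraries. In Aire-/-, library 749 was the highest of 3 for Hmox1, as for Slc40a1 and Tfrc.

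The summed level of transcripts of macrophages, which recycle haem iron and export it through ferroportin, was also highest in library 749, but not every marker was. This was not particular to macrophages. Summed markers of B cells (83.2, 109 and 186 CPM in Aire-/-) and dendritic cells (52.4, 49.0 and 74.6 CPM) were also highest in 749. Those of T cells (143, 240 and 205 CPM) were highest in 748. The 13 macrophage markers, all in the table and none at 0 in a genotype, summed to 2461, 2384 and 4854 CPM in Aire-/- and to 2529, 2750 and 2184 CPM in Aire+/+. By edgeR, 3 of these markers fell in Aire-/- (Itgam, Spic and Marco) and 1 rose (Cd68). The edgeR shares over all tested genes were 12.1% lower and 8.59% higher. DESeq2 called 3 macrophage markers lower and 2 higher. Lyz2 was higher in every Aire-/- library (1306 to 2121 CPM) than in any Aire+/+ library (1070 to 1165 CPM). It was not called by edgeR (adjusted p = 0.0631). Library 749 was below every Aire+/+ library for Itgam, Spic, Marco and Timd4. Marco had 1.22 CPM in 749, against 31.4 to 41.0 CPM in Aire+/+. Most of the sum in 749 came from Lyz2, at 2121 CPM, and from C1q. The subunits of complement C1q summed to 956, 895 and 2359 CPM in Aire-/- and to 1196, 1306 and 865 CPM in Aire+/+. Cd163, the haemoglobin scavenger receptor, had 3.08, 2.69 and 14.1 CPM in Aire-/- and 4.92, 8.26 and 8.39 CPM in Aire+/+. The part of macrophage RNA in the values of Slc40a1 and Hmox1 was not tested. The 4 of 11 erythroid markers in the table summed to 27.7, 24.2 and 36.7 CPM in Aire-/- and to 29.2, 40.6 and 33.6 CPM in Aire+/+. Most of the Aire-/- sums was Alas2, at 27.7, 23.1 and 33.6 CPM, which was not called (log2 fold change 0.50). The others were lower in every Aire-/- library. Epor was called lower by edgeR (log2 fold change -2.19, adjusted p = 0.0296) but not by DESeq2. Klf1 had 1 UMI in Aire-/- against 26 in Aire+/+, and Slc4a1 had 0 against 50.

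**Figure D4:**
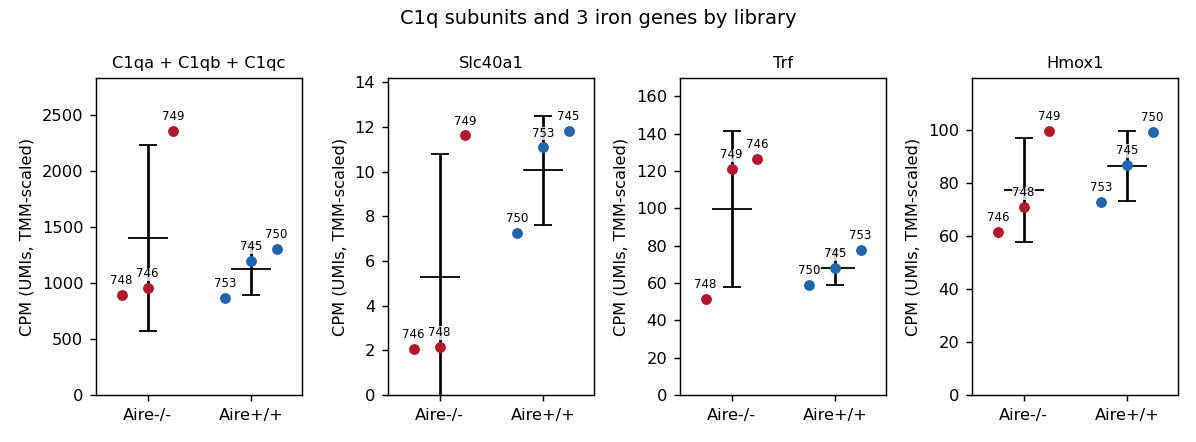
Summed level of the C1q subunits, a marker of macrophages, beside Slc40a1, Trf and Hmox1 in CPM, by library number, in 3 Aire-/- libraries (red, left) and 3 Aire+/+ libraries (blue, right), with means and SD over 3 libraries. Library 749 is the highest Aire-/- library for C1q at 2359 CPM, for Slc40a1 at 11.6 CPM and for Hmox1 at 99.6 CPM, but not for Trf. Among the Aire+/+ libraries Hmox1 has the order of C1q, while Slc40a1 and Trf do not. Slc40a1 is lowest there in 750 (7.27 CPM), where C1q is highest (1306 CPM).

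Beyond the 9 genes, 110 further gene symbols of iron, haem and iron-sulfur metabolism were listed, of which 87 were in the table and 77 were tested. Some genes were listed under both an older and a newer symbol, so fewer than 110 genes were listed. Of the 77, 13 fell and 3 rose in Aire-/-, together 20.8%, while 20.7% of all tested genes were called in either direction. Their median log2 fold change was -0.02, as over all tested genes. The count that fell was 8 without library 748 and 7 without 753.

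Among genes that regulate hepcidin, edgeR called 5 of 21 tested lower and 1 higher, and DESeq2 called 4 lower and 2 higher. Over all tested genes, edgeR called 12.1% lower and 8.59% higher. Tmprss6, the liver protease that restrains hepcidin, had 0, 4 and 0 UMIs in Aire-/-, against 47, 36 and 42 in Aire+/+ (log2 fold change -3.88, adjusted p = 0.000487 by edgeR), and all 4 UMIs came from library 748. Bmp6, the ligand by which the liver senses iron, fell to 2.19 ± 0.44 CPM in Aire-/-, against 6.97 ± 1.51 CPM in Aire+/+ (edgeR adjusted p = 0.0171). Bmp2, a related ligand, fell by 0.92 and Il6, the cytokine that raises hepcidin in inflammation, by 1.85 on the log2 scale (edgeR adjusted p = 0.0317 and 0.0179). Stat3, the factor that acts downstream of Il6 on hepcidin, rose to 410 ± 21.0 CPM in Aire-/-, against 271 ± 25.8 CPM in Aire+/+ (log2 fold change 0.60, edgeR adjusted p = 0.00441). Hamp2 is the fifth that fell, and 15 genes of this list, among them Tfr2, Bmpr1a, Smad1 and Id1, were not called by edgeR. Socs3, which restrains Il6 signalling, was called higher by DESeq2 only (adjusted p = 0.0436, against 0.0811 by edgeR). These calls differed in how well they held when 1 library was left out. The edgeR adjusted p of Bmp6 was 0.0596, 0.0506 and 0.0711 without 749, 750 and 753. That of Bmp2 was 0.0591, 0.0617, 0.107 and 0.111 without 746, 748, 750 and 753, and that of Il6 was 0.0566, 0.0607 and 0.0784 without 748, 745 and 753. By DESeq2 the adjusted p of Bmp6 was 0.0951.

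Of 13 tested genes of iron uptake, oxidation and export, 4 fell and 0 rose by edgeR and by DESeq2, with 0 higher at an unadjusted p under 0.05. Over all tested genes, edgeR called 12.1% lower and 8.59% higher. Ltf, lactoferrin, an iron-binding protein of secretions, had 0, 2 and 1 UMIs in Aire-/-, against 119, 63 and 78 in Aire+/+. Aire+/+ over Aire-/- this was a ratio of 42.8 (95% counting interval 14.5 to 209). Meltf, melanotransferrin, had 1, 1 and 0 UMIs in Aire-/-, against 47, 58 and 25 in Aire+/+, a ratio of 32.1 in the same direction (8.70 to 268). Lcn2, lipocalin 2, which binds the iron carriers of bacteria, fell to 24.1 ± 8.41 CPM in Aire-/-, against 118 ± 12.7 CPM in Aire+/+ (log2 fold change -2.32, edgeR adjusted p = 1.02e-05). Slc11a1, the phagosomal relative of the member Slc11a2, fell by 1.23 on the log2 scale (edgeR adjusted p = 0.0293). Its adjusted p was 0.137, 0.0794 and 0.114 without 748, 750 and 753, and its log2 fold change was -1.88 without 749. The ferroxidases Cp and Heph and the ferrireductase Cybrd1 were not called.

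None of the 6 tested genes that sense iron inside the cell or handle ferritin was called by edgeR or DESeq2, and none of the 6 had an unadjusted edgeR p under 0.05. As edgeR called 20.7% of all tested genes in either direction, a list of 6 without a call does not show that this group was unchanged. Aco1, which becomes an iron regulatory protein when it lacks its iron-sulfur cluster, had 57.6 ± 15.0 CPM in Aire-/- and 47.1 ± 2.30 CPM in Aire+/+. Ireb2, the other iron regulatory protein, had 16.6 ± 5.55 CPM in Aire-/- and 21.3 ± 8.98 CPM in Aire+/+. Pcbp1, a chaperone that brings iron to ferritin, had 332 ± 65.4 CPM in Aire-/- and 285 ± 27.1 CPM in Aire+/+. Ncoa4, the receptor that takes ferritin to the lysosome, had 4.11, 5.92 and 18.3 CPM in Aire-/- and 12.1, 9.91 and 15.1 CPM in Aire+/+, again with 749 the highest Aire-/- library. Its edgeR adjusted p was 0.663 with all libraries and 0.0369 without 749.

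In haem metabolism, 2 of 16 tested genes fell and 1 rose, while 12.1% of all tested genes fell and 8.59% rose by edgeR. Alas1, the first and rate-limiting enzyme of haem synthesis outside red cells, rose to 597 ± 32.1 CPM in Aire-/-, against 273 ± 12.5 CPM in Aire+/+ (log2 fold change 1.13, adjusted p = 3.07e-05 by edgeR). The plasma scavengers fell: Hpx, which binds haem, had 1, 4 and 2 UMIs in Aire-/- and 44, 52 and 68 in Aire+/+ (log2 fold change -3.49, edgeR adjusted p = 7.43e-05). Hp, which binds haemoglobin, had 10, 3 and 7 UMIs in Aire-/- and 114, 92 and 138 in Aire+/+ (log2 fold change -3.04, and -3.70 without 746, edgeR adjusted p = 0.000117). Both are also among the hepatocyte markers above. Flvcr1, a haem exporter, had 24.1 ± 6.93 CPM in Aire-/- and 16.0 ± 3.07 CPM in Aire+/+, with an edgeR adjusted p of 0.105 and of 0.0267 without 746. Hmox2, Blvra and Blvrb, which act with or after Hmox1, were not called.

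Iron-sulfur cluster assembly had 1 call in 12 tested genes (8.33%), against 20.7% of all tested genes called in either direction. This was Hspa9, a mitochondrial chaperone, which fell by 0.50 on the log2 scale (edgeR adjusted p = 0.0364). That adjusted p lay between 0.0673 and 0.153 without 746, 748, 745, 750 or 753 in turn, and DESeq2 called 0 genes of this list. Lyrm4, a partner of the cysteine desulfurase, had 4.93 ± 2.63 CPM in Aire-/- and 9.61 ± 3.18 CPM in Aire+/+, with an edgeR adjusted p of 0.168 and of 0.0487 without 749. Iscu, the scaffold of the cluster, averaged 86.3 ± 33.8 CPM in Aire-/- and 64.0 ± 8.99 CPM in Aire+/+, and Fdx1, a ferredoxin, 133 ± 22.7 CPM in Aire-/- and 110 ± 11.7 CPM in Aire+/+. Neither of the last pair was called.

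Nrf2 and Bach1 control transcription of ferritin and Hmox1 in opposite directions. Of 9 tested genes of this group 1 rose and 1 fell by edgeR (22.2%, and 20.7% over all tested genes), while DESeq2 called 0. Nqo1, a quinone reductase and known Nrf2 target, rose to 30.0 ± 2.66 CPM in Aire-/-, against 18.0 ± 0.44 CPM in Aire+/+ (log2 fold change 0.74, edgeR adjusted p = 0.0146). Its adjusted p was 0.0713, 0.0501, 0.0522 and 0.0581 without 748, 745, 750 and 753, and 0.0604 by DESeq2. Slc7a11, the cystine transporter and another Nrf2 target, fell by 1.38 on the log2 scale (edgeR adjusted p = 0.0398). Without 746, 748, 745 and 753 its adjusted p was 0.0821, 0.166, 0.0856 and 0.150, and without 749 its log2 fold change was -2.14. Bach1, a repressor that haem releases from DNA, had 8.07 ± 4.23 CPM in Aire-/- and 14.3 ± 3.76 CPM in Aire+/+ (edgeR adjusted p = 0.163, and 0.0295 without 749). Gclc, the catalytic subunit of glutathione synthesis, had 105 ± 10.8 CPM in Aire-/- and 86.3 ± 5.06 CPM in Aire+/+ (adjusted p = 0.183 by edgeR).

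**Figure D5:**
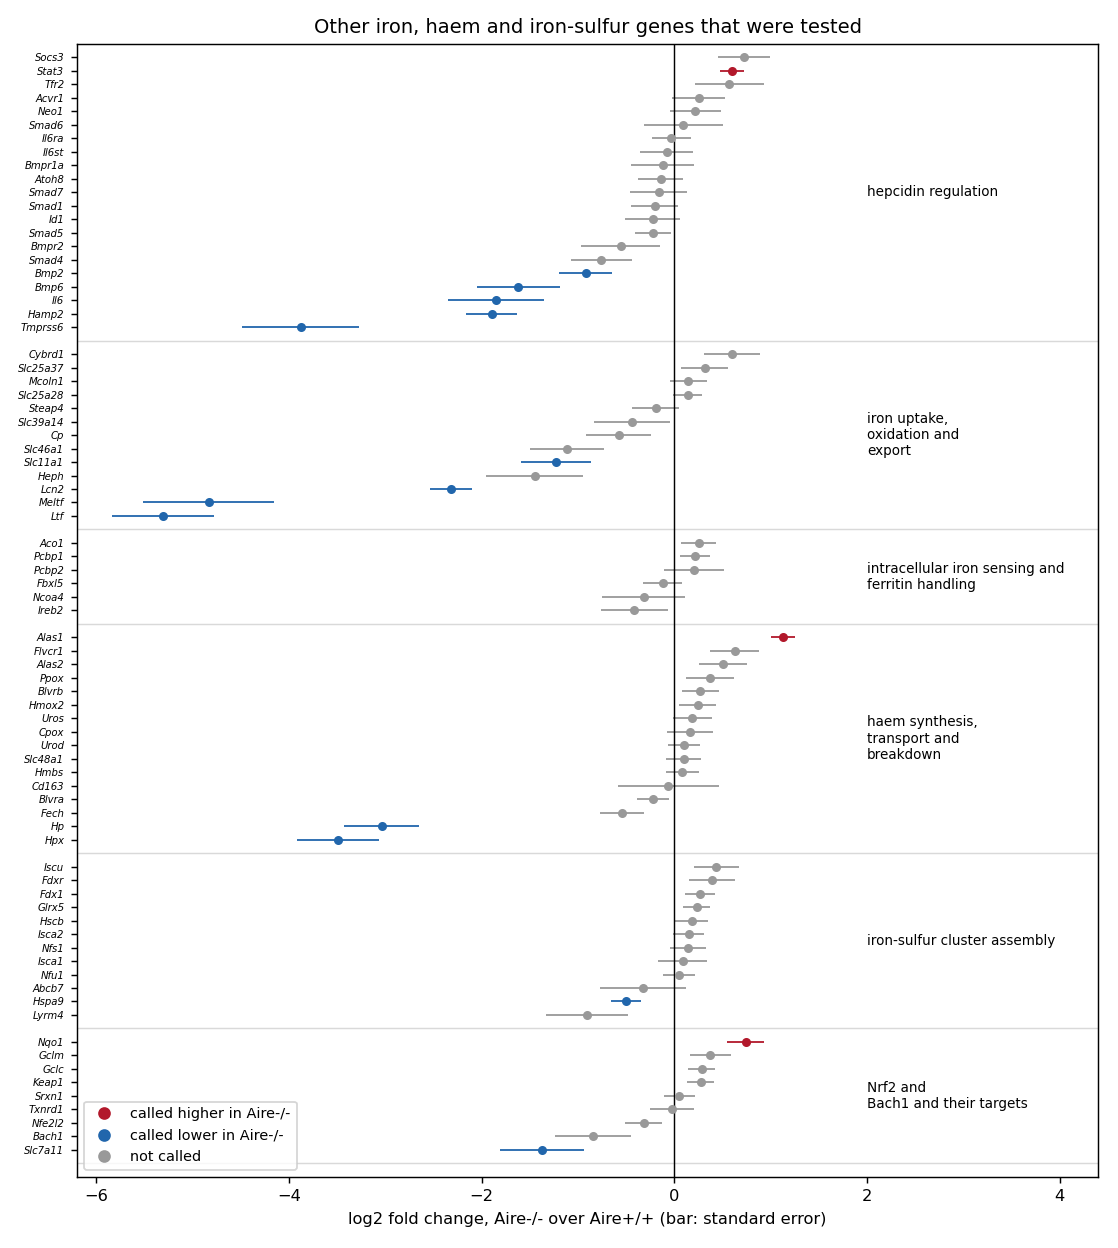
Log2 fold changes (Aire-/- over Aire+/+, bars are standard errors) of the 77 tested genes of iron, haem and iron-sulfur metabolism beside the 9 genes described above, grouped by list. Red marks the 3 genes called higher in Aire-/-, blue the 13 called lower and grey the 61 not called. The fitted values of Ltf and Meltf rest on 3 and 2 UMIs in Aire-/-.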

How the data were processed

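RNA of sorted mTEChi was measured in 6 libraries. A single table covers them, and 0 of its per-sample columns lack a sample. The raw UMI counts were used as the authors deposited them, 1 row per gene symbol. Normalized counts, a signal the authors made with 1 size factor per library, served only to check that factor, and the regularized log2 values of the authors were not used. Log2 fold changes (Aire+/+ over Aire-/-), p-values and adjusted p-values of the authors are in the table, per the file headers. The submitters' processing notes list the build mm10 and, without roles, the tools STAR (2.4.2a), HTSeq, DESeq2, bcl2fastq and cutadapt. The sources used here do not give the annotation, the strand setting or how reads that match more than 1 gene were counted.

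Aire-/- was set against Aire+/+ with the quasi-likelihood test of edgeR 4.0.16 (R 4.3.3), with TMM scaling, filterByExpr at min.count 10 (11956 genes kept), genotype as the only term, Benjamini-Hochberg adjustment over all tested genes and a threshold of 0.05. Levels are CPM with TMM factors, as mean ± SD over 3 libraries. DESeq2 1.42.0, other scalings and filters, summed near copies and left-out libraries were alternatives. Between libraries of a genotype, chi-square per degree of freedom was 2.96 to 5.60, so none repeats another within sampling noise. A count of 0 allows 3 UMIs, or 1.61 to 3.08 CPM in Aire-/- and 0.984 to 1.01 CPM in Aire+/+ on this scale. Floors and exact Clopper-Pearson intervals (95%) cover counting error only.

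Positions and transcripts come from a GENCODE annotation of GRCm38, the assembly called mm10, in which 15363 of the 15643 symbols and all 9 members were found. Promoters and miR-692 are from RefSeq. Copies were found with blastn 2.17.0 on the last 300 nt of transcripts. The members and lists were chosen with earlier results of these data known. Named genes were the members, up to 4 genes per list with the smallest p, genes within 500 kb of Mir692-1, copies of members, and for each member the 3 genes nearest in profile. Genes near Hamp, marker genes and list genes given as not called were added after values were seen. The test was checked on simulated counts.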

Additional observations from a re-analysis of the deposited data

How the results depend on the processing

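No paired analysis was possible because the library numbers differ between the genotypes and pair none of them. Of the counts and of the fold changes of the 9 genes, 145 values under an alternative were within 1.5 times the reported count, or within 1 SD between libraries of the reported fold change, and 14 were not. Genes called lower numbered 2142 with no filter on low counts and 2113 at min.count 3. With library totals alone as the scale, the median log2 fold change of all genes was -0.221 in place of -0.0227, 567 genes were called higher and 2048 lower (1027 and 1450 with TMM), and the log2 differences were 2.52 for Hamp, 1.02 for Ftl1 and -0.03 for Fth1. Summing near copies gave 2.49 for Hamp with Hamp2, and 1.41 for Ftl1 and for Mir692-1 as 1 row. Without 753 and 746, in which Gapdh was nearly missing, 652 genes were called higher and 7 iron pathway genes lower. Leaving out 1 library at a time gave 618 to 1156 genes called higher (632 without 745, 618 without 753), 7 to 17 pathway genes lower, and log2 differences of -2.22 to -0.37 for Slc40a1. For Hamp (2.62 to 2.82), Ftl1 (1.14 to 1.26), Fth1 (0.12 to 0.21) and Mir692-1 (8.20 to 8.72) the sign held without each library. Ncoa4 changed sign without 748 (0.01, in a range of -1.23 to 0.01 over single libraries) and without 753 and 746 (0.10). Tagap1 did so with totals alone (-0.19), by DESeq2 (-0.01) and without 748 (-0.42), 745 (-0.02) or 750 (-0.01), its highest value being 0.18 without 746. The cause was not tested. At these depths Slc40a1, with 2 to 19 UMIs in Aire-/-, had the largest standard error of the 9 genes (0.51).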

Other observations

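Several of the profiles nearest to an iron gene belonged to genes of other functions, and each nearest gene is given here with its root mean square difference over 6 libraries (log2, centred). Nearest to Fth1 was Gadd45b, a stress-response gene, at 0.03, with 900 ± 30.5 CPM in Aire-/- and 810 ± 56.3 CPM in Aire+/+. Nearest to Hmox1 was Synpo, an actin-associated protein, at 0.06, and nearest to Tfrc was Abca1, a cholesterol exporter, at 0.07. For Slc11a2 it was Idua, a lysosomal enzyme, at 0.04. Slc40a1 and Trf had no neighbour closer than 0.21 and 0.14. With 6 libraries a likeness of this kind is a description, and shared control was not tested.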
